A study of Mus musculus with 3 samples.

Results

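Gata6, Gata4, Sox17, Sox7, Foxa2 and Hnf4a are 6 transcription factors of the primitive endoderm, the blastocyst layer that gives rise to the visceral and parietal yolk sac. Their UMI counts were followed in single-cell libraries of mouse blastoids, which are blastocyst-like structures grown from stem cells. The 6 genes are 6 of the 32285 genes measured. The blastoids derive from E14 embryonic stem cells grown with LIF and 10 µM T0901317, an agonist of the liver X receptors, of which Nr1h2 encodes a member. All 3 libraries share this treatment: aggregates of 5 cells per microwell received rhFGF4, heparin, CHIR99021 and Y-27632 for 24 h and then rhFGF4, heparin, CHIR99021, BMP4 and A83-01, and blastoids were picked by hand on day 5. Each of the blastoid types I, II and III (titled NrESC_Type_I to NrESC_Type_III) gave 1 library. The labels do not say what sets the types apart, and no library without T0901317 is among them, so no effect of the agonist can be read here.

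Of the deposited barcodes 3669 were used, those with 10000 UMIs or more of which at most 20% were mitochondrial. Those with UMIs of at least 2 of the 6 factors, 1807 of the 3669, are called endoderm barcodes here. They were ordered by the summed level of Ttr, Rbp4, Apoa1 and Apoa2, which encode carrier proteins for thyroid hormone and retinol and the protein part of lipoproteins, all secreted by visceral endoderm. Levels are in CPM, the UMIs of a gene scaled to the same total of UMIs in each group. The low class has under 100 CPM of the 4 carriers (136, 204 and 38 barcodes in Types I, II and III), the middle class 100 to 1000 CPM (181, 224 and 14) and the high class over 1000 CPM (435, 556 and 19). Backgrounds were keratin barcodes (Krt8, Krt18 and Krt19 summed to at least 800 CPM; 188, 258 and 68) and Pou5f1 barcodes (Pou5f1 at 150 CPM or more; 356, 542 and 130). Both backgrounds had under 100 CPM of carriers and stayed below the limit of the other. Neither was restricted on the factors: 95 of 514 keratin and 121 of 1028 Pou5f1 barcodes held at least 2 of them and thus belong to the low class as well.

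In the mouse blastocyst, Gata6 marks cells that leave the Nanog-positive epiblast fate, and FGF signalling favours that choice. Gata4, Sox17 and Sox7 are switched on after Gata6 in the forming layer. Foxa2 and Hnf4a are known from visceral endoderm and later from liver, where Hnf4a, a nuclear receptor, activates genes of apolipoproteins and other secreted proteins. Sox7 is also known from parietal endoderm and, like Sox17 and Gata6, from the cardiovascular lineages.

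Promoter sequence is shown for Hnf4a, the factor that rose with the carriers, for Foxa2, the other factor known best from visceral endoderm, and for the carrier gene Apoa2. Gata4, Sox17 and Sox7 have no entry in the table used here. Each window holds 250 bases before and 50 after a RefSeq start, on build GRCm38.p6, written 5′ to 3′ on the gene's strand. Hnf4a has 2 starts in the table, at chr2:163506607-163506906 and chr2:163546905-163547204, both on the plus strand. The Foxa2 window, the last of 3 in the table and the one with a motif match, on the minus strand, is chr2:148045415-148045714, and the first of 2 Apoa2 windows, on the plus strand, is chr1:171224804-171225103.
Hnf4a first window: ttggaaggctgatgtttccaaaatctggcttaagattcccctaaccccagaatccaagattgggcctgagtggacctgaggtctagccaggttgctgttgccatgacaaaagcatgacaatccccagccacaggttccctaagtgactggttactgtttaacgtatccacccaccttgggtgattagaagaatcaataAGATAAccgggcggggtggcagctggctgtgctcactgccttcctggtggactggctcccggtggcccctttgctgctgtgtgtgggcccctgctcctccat
Hnf4a second window: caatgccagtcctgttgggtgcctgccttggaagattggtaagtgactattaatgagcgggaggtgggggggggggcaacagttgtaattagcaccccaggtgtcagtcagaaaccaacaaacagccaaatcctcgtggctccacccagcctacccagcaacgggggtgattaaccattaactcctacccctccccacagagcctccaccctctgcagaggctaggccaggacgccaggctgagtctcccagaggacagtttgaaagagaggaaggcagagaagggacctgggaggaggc
Foxa2: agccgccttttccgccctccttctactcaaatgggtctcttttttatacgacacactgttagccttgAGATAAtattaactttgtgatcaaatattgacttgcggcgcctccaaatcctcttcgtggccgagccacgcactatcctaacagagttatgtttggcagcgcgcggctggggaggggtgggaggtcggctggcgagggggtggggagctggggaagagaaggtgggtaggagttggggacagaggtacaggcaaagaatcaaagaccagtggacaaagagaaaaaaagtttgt
Apoa2: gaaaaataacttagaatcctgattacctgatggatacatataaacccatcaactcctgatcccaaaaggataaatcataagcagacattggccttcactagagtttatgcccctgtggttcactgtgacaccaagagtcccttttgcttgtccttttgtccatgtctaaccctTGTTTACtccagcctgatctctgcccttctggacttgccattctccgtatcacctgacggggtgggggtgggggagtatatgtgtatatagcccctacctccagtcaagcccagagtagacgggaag
Capitals mark letters of a searched motif. The searched motifs were AGATAA (the GATA factor motif), TGTTTAC (forkhead), CAAAGTCC (Hnf4a) and ACAATG (SOX), each on both strands, with no overlap between matches. The first Hnf4a window and the Foxa2 window hold AGATAA, the Apoa2 window holds TGTTTAC, and the second Hnf4a window holds none of the 4. Of the windows not shown, the first Rbp4 window holds the forkhead motif on the other strand, while the other windows of Foxa2, Rbp4 and Apoa2 and the window of Apoa1 hold none. Of 32851 mouse promoter windows of this length, 11.2% hold AGATAA, 3.65% TGTTTAC, 1.42% CAAAGTCC and 12.6% ACAATG. Matches describe letters and not bound sites, since no binding was measured.

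The GENCODE M21 annotation of build GRCm38 puts Gata4 (chr14:63198922-63271692, minus strand) and Sox7 (chr14:63943673-63950732, plus strand) on the same chromosome. Foxa2 (chr2:148042877-148046969, minus strand) and Hnf4a (chr2:163506808-163572910, plus strand) share another. Sox17 lies at chr1:4490931-4497354 on the minus strand and Gata6 at chr18:11052064-11085635 on the plus strand. Some transcripts of the opposite strand overlap members: 1010001N08Rik at Gata6, Gm37587 at Sox17 and Hnf4aos at Hnf4a. Hnf4aos reached at most 0.146 CPM in any group of barcodes. The sources used here do not state whether counting used strand, so reads of such partners could not be told apart if it did not. No window of 50 bases in the last 500 bases of the 6 genes matched another gene's transcript.

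The kept barcodes hold 86.9%, 82.3% and 82.2% of the UMIs of Types I, II and III, with median depths of 52224, 41491 and 71540 UMIs. Barcode sequences shared by pairs of libraries number 151 to 209 as deposited and 0 or 1 among the kept. Type III has the fewest endoderm barcodes, 71, against 752 in Type I and 984 in Type II. Because each type has 1 library, the 3 libraries stand in for replicates of a class, and p-values reflect only how evenly a difference between classes recurred in the 3. Intervals cover counting error only. Depth was similar in the classes that are compared, with medians of 54943, 41039.5 and 92031 UMIs per high barcode and 52842.5, 42687.5 and 99179 UMIs per low barcode in Types I, II and III.

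The 6 factors were measured together in the same barcodes, far above both backgrounds. Each factor was tested in barcodes chosen by at least 2 of the 5 other factors, so that its own UMIs took no part. The backgrounds were keratin and Pou5f1 barcodes with fewer than 2 of those 5. In this test the endoderm barcodes also stayed below the Pou5f1 limit, and no carrier limit was set on the backgrounds. Both sides thus differ from the groups defined above. For Gata6 in Type I there were 205 keratin barcodes, against 188 in the keratin group with the carrier limit. Sox7 averaged 29.6 ± 7.81 CPM in endoderm barcodes, 0.504 ± 0.437 CPM in keratin barcodes and 0.393 ± 0.0189 CPM in Pou5f1 barcodes (SD, n = 3 libraries). Hnf4a was at 24.6, 26.9 and 19.5 CPM in the endoderm barcodes of Types I, II and III, at 0.562, 1.10 and 0 CPM in their keratin barcodes and at 0.637, 0.753 and 0.547 CPM in their Pou5f1 barcodes. Neither gene had a UMI in these keratin barcodes of Type III. Sox17 had the highest keratin background of the 6 relative to its own endoderm level. It was at 136, 135 and 132 CPM in endoderm barcodes, 14.2, 25.6 and 20.7 CPM in keratin barcodes and 2.49, 2.45 and 1.10 CPM in Pou5f1 barcodes. Gata6 averaged 95.5 ± 16.1, 6.05 ± 1.74 and 2.09 ± 0.631 CPM, Gata4 82.0 ± 11.3, 4.42 ± 3.14 and 1.96 ± 0.472 CPM, and Foxa2 45.7 ± 3.74, 3.01 ± 2.34 and 0.928 ± 0.686 CPM in those groups.

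All 6 factors were higher in endoderm barcodes in all 3 libraries, with no overlap between groups. The share of all genes with no such overlap was not counted, so this alone sets no factor apart. The log2 fold over keratin barcodes ran from 2.92 (SE 0.149, Sox17) to 5.64 (SE 0.274, Sox7), and that over Pou5f1 barcodes from 5.03 (SE 0.219, Hnf4a) to 5.94 (SE 0.254, Sox7). The highest of the 12 adjusted p-values of edgeR's quasi-likelihood test was 9.28e-07, for Foxa2 over keratin barcodes. In the fits for Gata6, Gata4, Sox17, Sox7, Foxa2 and Hnf4a, 32.1%, 31.1%, 32%, 31.4%, 31.3% and 31.2% of all genes were higher than in keratin barcodes. Against Pou5f1 barcodes the shares were 38.4%, 38%, 38.3%, 37.9%, 38.1% and 37.8%. The backgrounds as first defined, with under 100 CPM of carriers but not emptied of barcodes with other factors, held more of them. Gata6 averaged 14.5 ± 7.81 CPM in these keratin and 23.1 ± 8.66 CPM in these Pou5f1 barcodes, Sox17 34.6 ± 5.84 and 11.5 ± 3.63 CPM and Sox7 2.58 ± 1.93 and 5.18 ± 3.38 CPM (SD, n = 3). The folds above hold for the emptied backgrounds, which had no carrier limit, and for endoderm barcodes below the Pou5f1 limit. Every barcode was also thinned at random to 10000 UMIs before choosing and summing. All 12 then stayed called, with log2 folds of 1.15 to 2.61 over keratin and 2.67 to 4.60 over Pou5f1 barcodes. Thinning also changed which barcodes were compared. In the fit for Gata6 in Type I, endoderm barcodes numbered 467 instead of 661, and keratin barcodes 334 instead of 205.

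The low class was a mixture, which bears on every comparison with it. Of its 378 barcodes 113 held exactly 2 of the factors, and these had a median of 179 CPM for 8 other endoderm genes (Lama1, Lamb1, Lamc1, Col4a1, Col4a2, Dab2, Cubn and Amn), against 6133 to 8354 CPM in low barcodes with 4 to 6 factors. Pou5f1 reached 150 CPM in 20 of 1010 high barcodes (1.98%), against 137 of 378 low barcodes (36.2%). The 8 epiblast markers summed to 123 to 182.5 CPM in the high class and 499 to 528 CPM in the low class, and the 10 trophectoderm markers to 1697 to 1788 and 1193 to 2915 CPM. The 8 streak and mesoderm markers summed to 8.32 to 12 CPM in the high class and 26.4 to 55.7 CPM in the low class. The 8 blood and endothelial markers summed to 3.5 to 4.0 CPM in the high class and 17.1 to 53.1 CPM in the low class. The classes were therefore formed a second time without the factors, from barcodes with at least 1600 CPM of those 8 endoderm genes, a choice made after the mixture was seen. It gave 1005 high, 389 middle and 244 low barcodes, and 995 of the high (99.0%) and 240 of the low (98.4%) held at least 2 factors. The share with Pou5f1 at 150 CPM or more was still unequal, 17 of 1005 high (1.69%) and 94 of 244 low barcodes (38.5%). The part of these markers in the results that follow was not tested, except where values without such barcodes are given.

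**Figure D1:**
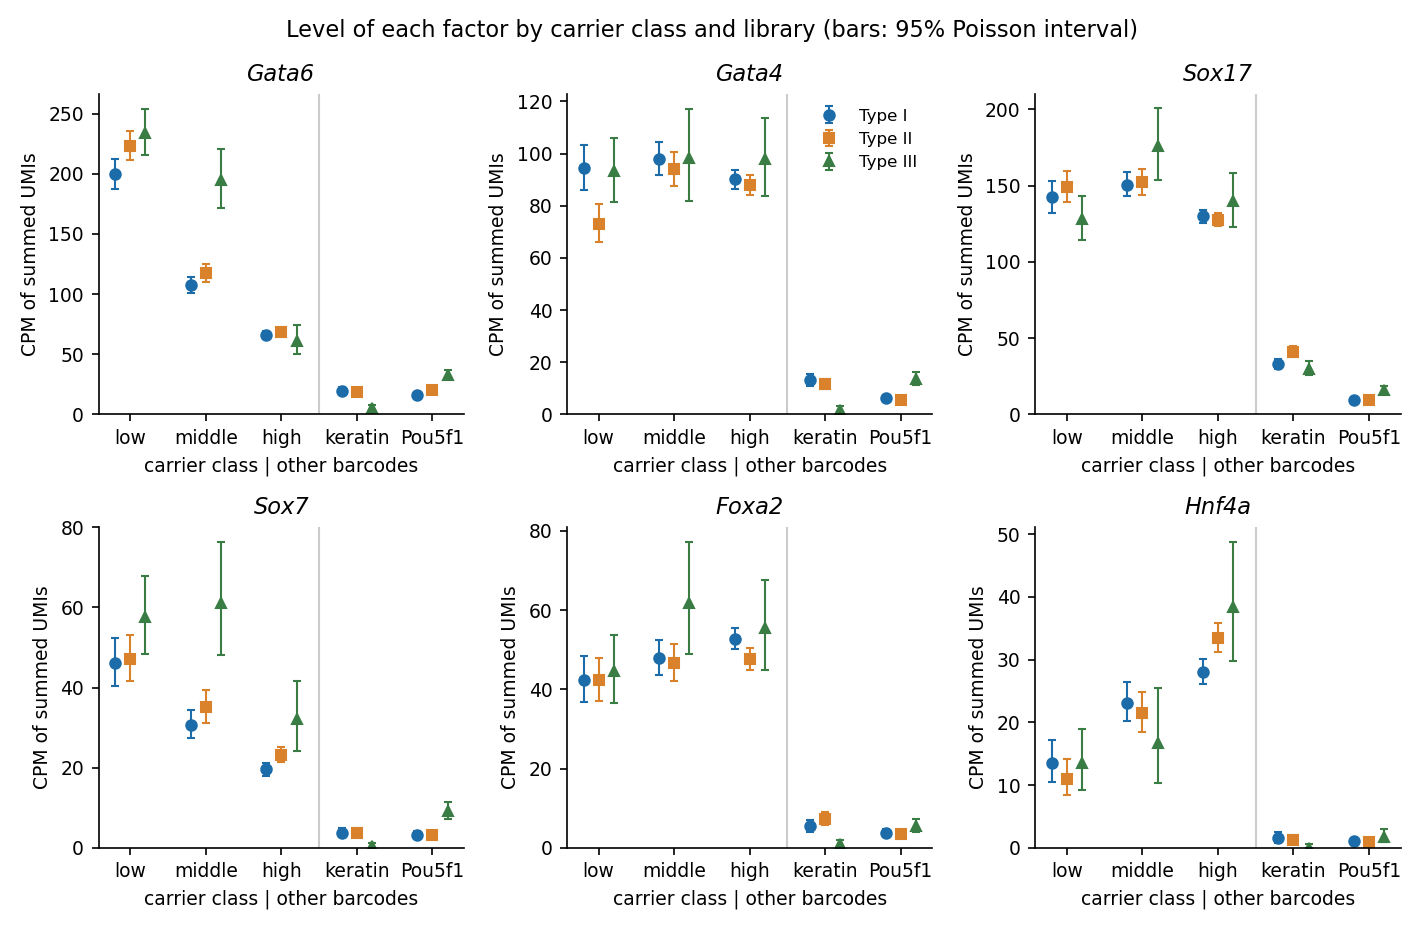
Level of each factor (vertical axes, CPM of summed UMIs, linear) in low, middle and high carrier classes chosen by 8 other endoderm genes, and in keratin and Pou5f1 barcodes. Points are libraries (circle Type I, square Type II, triangle Type III) and bars are exact 95% Poisson intervals; Gata6 lies at 61.2 to 68.0 CPM in all high classes, against 199.6 to 234.2 CPM in all low classes, while Hnf4a lies at 28.1 to 38.3 and 11.0 to 13.6 CPM.

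Hnf4a rose with the carriers and Gata6 and Sox7 fell under both choices of barcodes, whereas the call for Gata4, Sox17 and Foxa2 depended on the choice. A gene is called when its edgeR p-value, adjusted over all genes tested, is under 0.05. Among barcodes chosen by the factors, 4 factors were higher in the high than in the low class (Hnf4a, Foxa2, Gata4 and Sox17) and 2 were lower (Gata6 and Sox7). Of the 12206 genes tested, 45.7% differed between these classes, 23.3% higher and 22.4% lower, so a call alone sets no factor apart from other genes. Because the factors' own UMIs chose these barcodes, each factor was also tested in barcodes with UMIs of at least 2 of the other 5, a setting added after seeing the data. Sox17 then had a log2 fold of 0.17 (edgeR adjusted p = 0.188) and was not called. Gata6 was at -1.20, Gata4 at 0.61, Sox7 at -0.49, Foxa2 at 0.85 and Hnf4a at 1.97, with edgeR adjusted p-values of at most 0.00724. Among barcodes chosen by the 8 other endoderm genes, Hnf4a was higher and Gata6 and Sox7 were lower, and 3 factors did not pass the test. Of 11010 genes 36.1% passed it there, 18.1% higher and 18% lower.

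Hnf4a was at 28.0, 32.8 and 38.3 CPM in the high class (Types I, II and III), against 9.29, 7.71 and 7.82 CPM in the low class. The classes did not overlap, and the log2 fold of high over low was 1.94 (SE 0.149, edgeR adjusted p = 3.45e-07). With barcodes chosen by the 8 other endoderm genes it was at 28.1, 33.5 and 38.3 CPM in the high class, against 13.6, 11.0 and 13.5 CPM in the low class. The libraries were again all higher in the high class, with a smaller log2 fold of 1.27 (SE 0.149, edgeR adjusted p = 6.77e-06). After thinning to 10000 UMIs, a UMI of Hnf4a was found in 30.1 ± 5.87% of high and 14.0 ± 0.55% of low barcodes of that choice (SD, n = 3). Its share was 1.00 ± 0.971% in keratin and 1.26 ± 0.244% in Pou5f1 barcodes. The unthinned shares were 71.8%, 66.4% and 84.2% in the high class and 48.9%, 36.1% and 52.4% in the low class of Types I, II and III.

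Gata6, the first of the 6 to be needed in the embryo, ran the other way. It was at 65.7, 67.1 and 61.2 CPM in the high class (Types I, II and III), against 133, 141 and 144 CPM in the low class. With barcodes chosen by the 8 other endoderm genes it was at 65.9, 68.0 and 61.2 CPM in the high class, against 199.6, 223 and 234.2 CPM in the low class. All high values lay below all low values under both choices. The log2 fold of high over low was -1.02 (SE 0.143, edgeR adjusted p = 7.50e-05) under the first choice and -1.75 (SE 0.123, edgeR adjusted p = 2.39e-08) under the second. Within Types I, II and III alone, the second choice gave log2 folds of -1.60, -1.71 and -1.94. Gata6 nonetheless stayed above background in the high class: a UMI was found in 47.5 ± 4.46% of thinned high barcodes and 78.2 ± 6.51% of low ones, against 8.21 ± 0.995% of keratin and 8.61 ± 1.89% of Pou5f1 barcodes (SD, n = 3), some of which also hold other factors.

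Sox7 moved like Gata6, with a smaller size. It was at 19.5, 22.7 and 32.0 CPM in the high class (Types I, II and III), against 31.4, 30.4 and 38.0 CPM in the low class. Each library was lower in its high class, but the ranges over libraries overlapped. The log2 fold of -0.44 (SE 0.128, edgeR adjusted p = 0.0120) was not called without Type I (-0.32, adjusted p = 0.197) or without Type II (-0.46, adjusted p = 0.160). With barcodes chosen by the 8 other endoderm genes Sox7 was at 19.6, 23.2 and 32.0 CPM in the high class, against 46.1, 47.2 and 57.6 CPM in the low class. These no longer overlapped, and the log2 fold was -1.13 (SE 0.107, edgeR adjusted p = 6.95e-07).

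Gata4, which works beside Gata6 on many of the same genes, differed between the classes under the first choice only. Chosen by the factors, it was at 89.9, 86.7 and 97.9 CPM in the high class (Types I, II and III), against 64.0, 48.5 and 52.7 CPM in the low class, a log2 fold of 0.74 (SE 0.0918, edgeR adjusted p = 2.39e-05). Chosen by the 8 other endoderm genes, it was at 90.1, 87.8 and 97.9 CPM in the high class, against 94.4, 73.1 and 93.2 CPM in the low class. The groups then overlapped, and the log2 fold was 0.017 (SE 0.0837, edgeR adjusted p = 0.899).

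Sox17, an HMG-box factor needed to keep the endoderm fate, also lost its call. Chosen by the factors, it was at 129.6, 125 and 139.6 CPM in the high class (Types I, II and III), against 103, 109 and 88.9 CPM in the low class, a log2 fold of 0.40 (SE 0.108, edgeR adjusted p = 0.00880). Chosen by the 8 other endoderm genes, it was at 129.7, 127.6 and 139.6 CPM in the high class, against 142, 149 and 128 CPM in the low class. The log2 fold turned to -0.17 (SE 0.0865, edgeR adjusted p = 0.137).

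Foxa2, a forkhead factor able to open closed chromatin, was at 52.7, 47.1 and 55.5 CPM in the high class (Types I, II and III), against 30.8, 29.3 and 25.2 CPM in the low class, when chosen by the factors. The classes did not overlap, and the log2 fold was 0.85 (SE 0.119, edgeR adjusted p = 7.48e-05). Chosen by the 8 other endoderm genes, it averaged 52.0 ± 4.05 CPM in the high class and 43.0 ± 1.31 CPM in the low class (SD, n = 3). All 3 high values then still lay above all 3 low values, but the log2 fold of 0.20 (SE 0.0933, edgeR adjusted p = 0.113) did not pass the test.

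Requiring at least 4 of the 6 factors, a second choice made after seeing the data, took nearly the same barcodes as the 8 other endoderm genes, whose limit 832 of its 834 high and 212 of its 219 low barcodes passed, so its folds are no independent support. They were -1.70 for Gata6, -1.04 for Sox7 and 1.29 for Hnf4a, all called, where 34.6% of 11005 genes were (17.3% higher and 17.2% lower). Gata4 was at 0.026, Sox17 at -0.16 and Foxa2 at 0.21, none called. Leaving out barcodes with Pou5f1 at 150 CPM or more from the classes chosen by at least 2 factors gave -0.83 for Gata6 and 1.80 for Hnf4a, both still called, while Sox7 at -0.43 (edgeR adjusted p = 0.0846) and Sox17 at 0.33 (edgeR adjusted p = 0.132) were not.

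**Figure D2:**
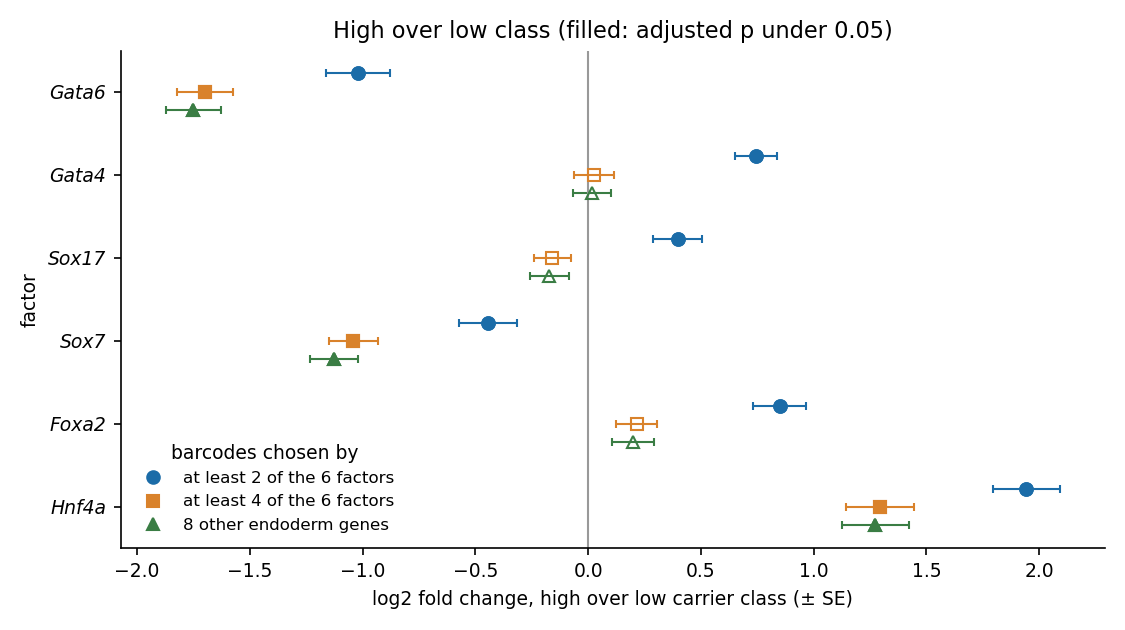
Log2 fold of the high over the low carrier class (horizontal axis) for the 6 factors (vertical axis), with barcodes chosen by at least 2 factors, at least 4 factors or 8 other endoderm genes; bars are ± 1 SE of the edgeR fit over 3 libraries, and filled points have an adjusted p under 0.05. Gata6 and Sox7 lie below 0 and Hnf4a above 0 under every choice, while Gata4, Sox17 and Foxa2 are called with at least 2 factors and lie between -0.17 and 0.21, not called, under the other choices.

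The middle class placed the steps along the order. Among barcodes chosen by the factors, 4 of 6 were higher in the middle than in the low class, where 27.3% of genes were called, 14.7% higher and 12.6% lower. In the middle classes of Types I, II and III, Gata4 was at 95.1, 89.1 and 97.3 CPM, Sox17 at 147, 146 and 179 CPM, Foxa2 at 46.8, 45.4 and 62.0 CPM and Hnf4a at 22.3, 21.1 and 16.5 CPM. Gata4 was higher than in the low class by a log2 fold of 0.79 (edgeR adjusted p = 6.42e-05), Sox17 by 0.64 (9.26e-04), Foxa2 by 0.78 (5.82e-04) and Hnf4a by 1.37 (6.24e-05). Under the second choice the log2 folds of Gata4, Sox17 and Foxa2 were 0.12, 0.09 and 0.16, none called. In the first choice, by the factors, Gata6 at -0.11 (edgeR adjusted p = 0.624) and Sox7 at 0.21 (edgeR adjusted p = 0.272) were not called. For Gata6 this rested on Type III, whose middle class has 14 barcodes: its middle classes were at 104, 111 and 193 CPM, against 133, 141 and 144 CPM in the low classes of Types I, II and III. Without Type III the log2 fold of middle over low was -0.35 (edgeR adjusted p = 8.65e-04).

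With barcodes chosen by the 8 other endoderm genes, the middle class lay between the low and high classes for Gata6 and Hnf4a in all 3 libraries and for Sox7 in Types I and II. Gata6 was at 107, 117 and 195 CPM, Sox7 at 30.8, 35.1 and 61.0 CPM and Hnf4a at 23.1, 21.5 and 16.6 CPM in the middle class of Types I, II and III. The middle over low log2 fold was -0.81 for Gata6 (edgeR adjusted p = 4.52e-04), -0.44 for Sox7 (edgeR adjusted p = 0.0157) and 0.75 for Hnf4a (edgeR adjusted p = 0.00700), where 11.8% of genes were called (6.42% higher and 5.39% lower). The high over middle log2 fold was -0.94 for Gata6 (edgeR adjusted p = 1.03e-04), -0.69 for Sox7 (edgeR adjusted p = 4.30e-04) and 0.52 for Hnf4a (edgeR adjusted p = 0.0127), where 9.83% of genes were called (5.95% higher and 3.88% lower). Gata4, Sox17 and Foxa2 passed neither test, with high over middle log2 folds of -0.10, -0.27 and 0.04. The same 3 factors were called in high over middle when barcodes were chosen by at least 2 factors, with 7.37% of genes called (4.49% higher and 2.88% lower). These were Gata6 at -0.91, Sox7 at -0.65 and Hnf4a at 0.57. In that choice the call of Hnf4a was lost without Type II (edgeR adjusted p = 0.466), and that of Sox7 without Type I (edgeR adjusted p = 0.0572) or Type II (edgeR adjusted p = 0.225).

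Finer ranges of the carriers showed where the levels turned, given as a description for Types I and II, whose ranges hold more barcodes. In Type I, Gata6 was at 202.6, 198, 149, 87.0, 70.8 and 62.5 CPM at carrier levels under 30, 30 to 100, 100 to 300, 300 to 1000, 1000 to 3000 and over 3000 CPM. In Type II it was at 239.6, 215, 154, 95.1, 78.4 and 61.3 CPM in the same ranges. In both libraries each range was lower than the one before, and the steps from 30 to 1000 CPM of carriers were the largest. Hnf4a was at 10.1, 15.3, 15.3, 26.9, 28.8 and 27.5 CPM in Type I and 13.6, 9.80, 12.8, 26.7, 35.1 and 32.4 CPM in Type II. Its main step lay between the ranges of 100 to 300 and 300 to 1000 CPM, and the 3 ranges above 300 CPM lay within 26.7 to 35.1 CPM. Sox7 was at 47.5, 45.4, 33.5, 29.4, 22.2 and 17.8 CPM in Type I and 43.3, 49.1, 39.2, 32.7, 28.5 and 19.7 CPM in Type II, lower in each range than in the one before from 30 CPM of carriers on. Of barcodes chosen by the factors, over all 3 libraries, those at 1000 to 2000 and at 500 to 1000 CPM of carriers, just inside and just outside the high limit, had 70.7 and 89.6 CPM of Gata6 and 31.2 and 27.8 CPM of Hnf4a.

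**Figure D3:**
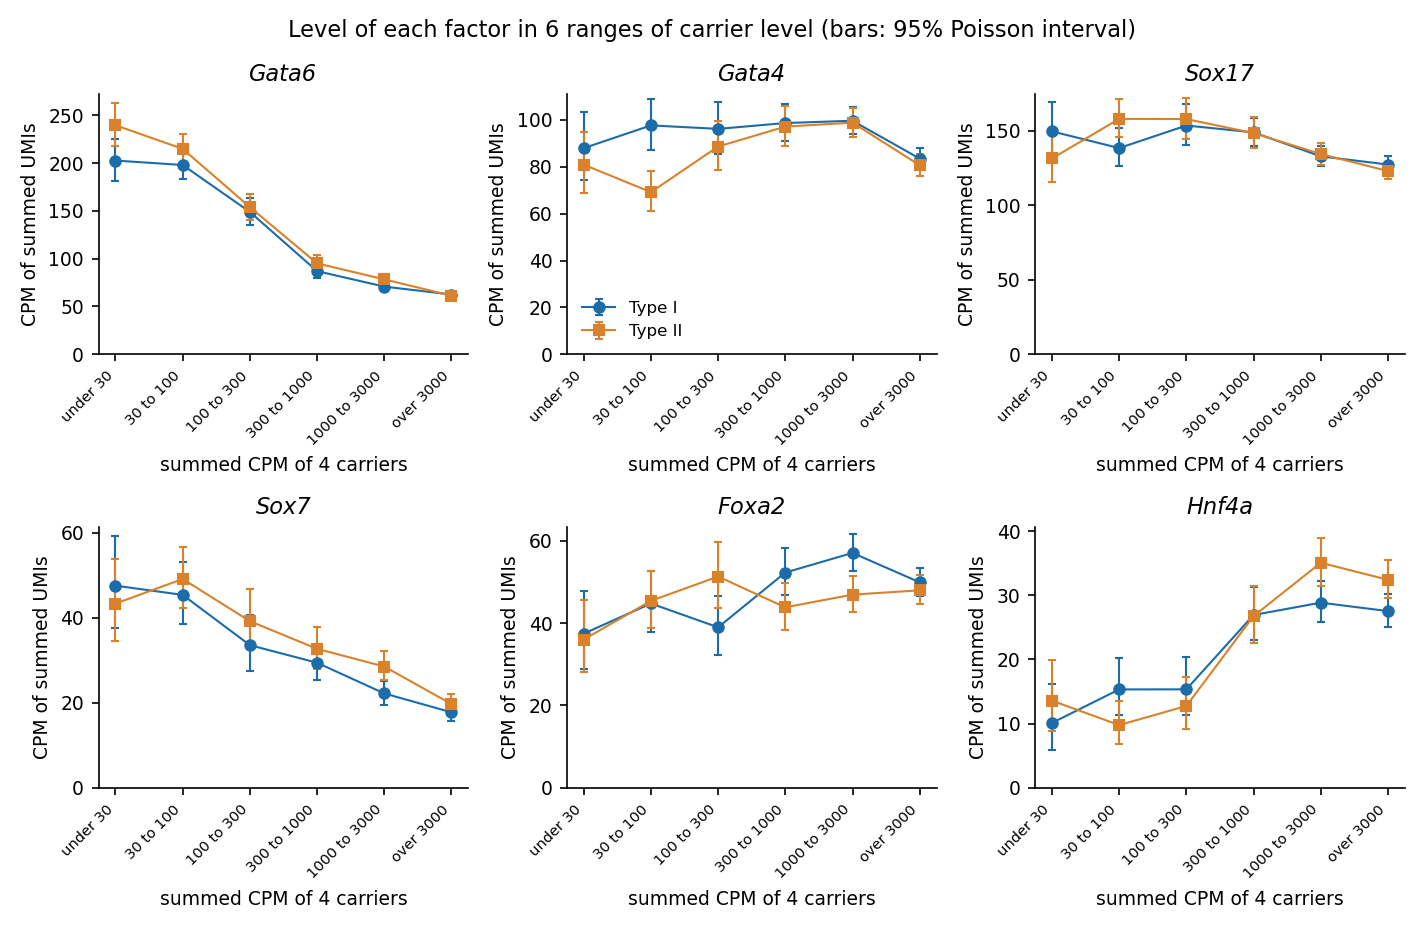
Level of each factor (vertical axes, CPM) in 6 ranges of the summed carriers (horizontal axes, CPM) in Types I and II, for barcodes chosen by 8 other endoderm genes. Gata6 declines from over 200 to about 62 CPM in both libraries, Sox7 declines, and Hnf4a steps up between the ranges of 100 to 300 and 300 to 1000 CPM.

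The carriers ordered the barcodes, so their own levels are a description. Ttr averaged 2762 CPM in the high, 257.3 CPM in the middle and 14.3 CPM in the low class, and Rbp4 1704, 146 and 16.4 CPM. Apoa1 averaged 309 CPM in the high class and 5.83 CPM in the middle class, and Apoa2 598.6 and 20 CPM, so middle barcodes were set apart from low ones mainly by Ttr and Rbp4. Ordering by Apoa1 and Apoa2 alone kept Gata6 and Hnf4a called in high over low in the same directions, with no high class for Type III, which had under 10 such barcodes.

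Co-detection was compared after thinning, since deeper barcodes show more factors. At least 4 factors were found in 15.0 ± 6.50% of low, 25.6 ± 2.73% of middle and 20.7 ± 0.330% of high barcodes chosen by the factors (SD, n = 3). Under the choice by the 8 other endoderm genes the shares were 23.7%, 27.6% and 20.7%. No order along the carriers is read from these shares, which turn with the choice of barcodes. By contrast, 73.6% to 83.8% of keratin and 84.8% to 86.9% of Pou5f1 barcodes held none of the factors after thinning.

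Gata6 and Hnf4a, which moved in opposite directions, were found together in some barcodes of every class. A UMI of each was present in 7.04% of low, 11.8% of middle and 12.2% of high thinned barcodes chosen by the factors, and in 11.5%, 12.8% and 12.2% of those chosen by the 8 other endoderm genes. Without thinning the shares were 29.7%, 48.9% and 67.4% in the first choice. All 6 factors were found together in 70 of 378 low (18.5%), 107 of 419 middle (25.5%) and 272 of 1010 high barcodes (26.9%) without thinning. Within a class of Types I and II, pairs of factors were found together 0.76 to 1.39 times as often as the product of their shares, in barcodes chosen by the 8 other endoderm genes. Over all kept barcodes of these libraries the ratio was 1.69 to 2.60, higher than any pair within a class. Across single barcodes, the thinned count of Gata6 and the unthinned carrier CPM had a Spearman rho of -0.30 in 692 barcodes of Type I. It was -0.34 in 893 of Type II and -0.51 in 53 of Type III, all chosen by the 8 other endoderm genes. Hnf4a and the carriers had 0.096, 0.11 and 0.26 and Sox7 and the carriers -0.17, -0.15 and -0.10 in Types I, II and III, weak relations in sparse counts.

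**Figure D4:**
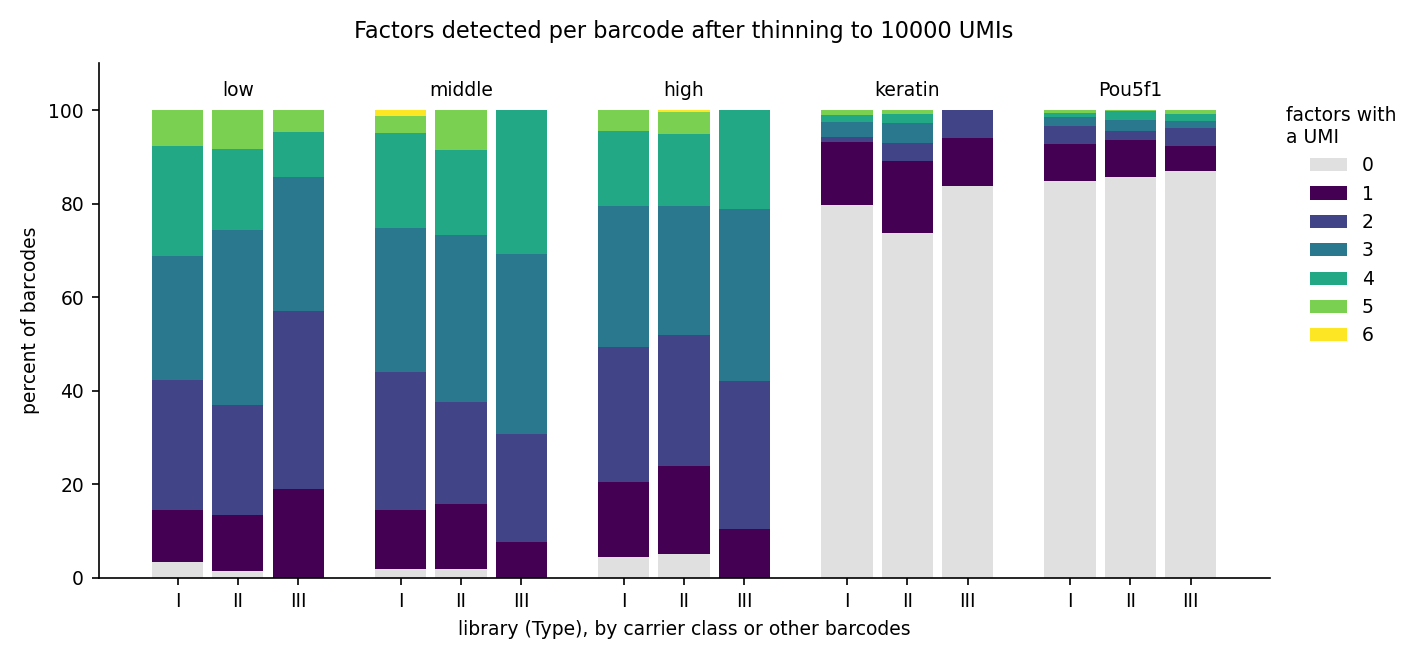
Percent of barcodes (vertical axis) with UMIs of 0 to 6 factors after thinning to 10000 UMIs, as stacked bars for each library in low, middle and high carrier classes chosen by 8 other endoderm genes, and in keratin and Pou5f1 barcodes. Most endoderm barcodes hold several factors, while 73.6% to 86.9% of keratin and Pou5f1 barcodes hold none.

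Related factors and cofactors were followed in a list of 12, of which 7 were tested. In high over low, 4 were higher and 2 lower (median log2 fold 0.47, against 0.01 over all genes tested). Foxa3, a forkhead relative of Foxa2 known from liver, averaged 12.4 ± 3.09 CPM in the high and 2.29 ± 0.679 CPM in the low class, a log2 fold of 2.60 (edgeR adjusted p = 2.23e-06). It was also higher with barcodes chosen by the 8 other endoderm genes, by 2.12. Gata3 and Gata2, trophectoderm members of the GATA family, were lower: Gata2 averaged 4.67 ± 2.07 CPM in the high and 88.9 ± 59.5 CPM in the low class, but its log2 fold was 0.03 (edgeR adjusted p = 0.958) with barcodes chosen by the 8 other endoderm genes. Among 16 other regulators, 14 were tested, 3 higher and 5 lower (median -0.15). Cited1, a transcriptional coregulator, averaged 1164 ± 109 CPM in the high and 175.5 ± 41.6 CPM in the low class, a log2 fold of 2.77 (edgeR adjusted p = 2.99e-10). Lhx1, a LIM homeobox factor of the anterior visceral endoderm, was higher by 1.90, and Otx2, also known there, had a log2 fold of -3.28. These 3 kept their call with barcodes chosen by the 8 other endoderm genes, with log2 folds of 2.10, 1.05 and -1.23.

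Other secreted proteins and known Hnf4a targets, which took no part in the ordering, were much higher in the high class. Of 14 listed genes 12 were tested, 11 higher and 1 lower in the high class (median log2 fold 5.58). Apob, the large protein of lipoprotein particles, averaged 1117 ± 280 CPM in the high and 3.63 CPM in the low class, and Apoc2, which activates lipoprotein lipase, 1492 and 10.6 CPM. Afp, the fetal albumin-like carrier, averaged 52.9 CPM in the high and 0.271 CPM in the low class, and Fgb, a fibrinogen chain, 44.7 and 0.487 CPM. When chosen by the 8 other endoderm genes 10 of 11 were higher and none lower (median 5.52).

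Of 8 uptake and junction genes of visceral endoderm, 6 were higher and none lower (median log2 fold 1.28), against 6 higher and 2 lower under the choice by the 8 other endoderm genes (median 0.57), in which 3 of them took part. Cldn6, a tight-junction claudin, averaged 459.3 CPM in the high and 167 CPM in the low class, and Slc7a7, an amino acid transporter subunit, 228.5 and 66.6 CPM. Cldn2, a pore-forming claudin, averaged 14.0 ± 4.79 CPM in the high and 0.0424 CPM in the low class. Of 10 basement membrane genes, 4 were higher and 5 lower (median -0.40). The laminin subunit gene Lama1 averaged 142 ± 13.3 CPM in the high and 333 ± 25.6 CPM in the low class, a log2 fold of -1.18, and Lamc1 had -0.97. The heparan sulfate proteoglycan gene Hspg2 had -0.93, and P4ha2, a collagen-modifying enzyme, -1.64. In the choice by the 8 other endoderm genes, 10 of 10 were lower, but 5 of these genes took part in that choice. The parietal endoderm list had 4 higher and 4 lower of 9 tested (median -0.10), but none higher and 6 lower under the other choice (median -0.42). Its Snai1, a zinc finger repressor, had -1.21 and, under the other choice, -1.61. Plat, which encodes a plasminogen activator, had 1.09, and 0.33 (edgeR adjusted p = 0.162) under the other choice.

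Signalling genes were mixed. Of 10 FGF and PDGF pathway genes 3 were higher and 2 lower (median log2 fold -0.08). The receptor genes Fgfr4 and Fgfr3 had log2 folds of 1.42 and 1.41. Pdgfra, a receptor gene of the primitive endoderm, had 0.65, and Fgfr1 had -1.81. Pdgfra (-0.16, edgeR adjusted p = 0.159) and Fgfr1 (0.44, edgeR adjusted p = 0.263) turned round and lost their call with barcodes chosen by the 8 other endoderm genes. Of 8 anterior and signalling genes 7 were tested, with 1 higher and 4 lower (median -0.81). Dkk1, a secreted Wnt antagonist, averaged 24.9 CPM in the high and 129.4 CPM in the low class, a log2 fold of -2.10, and kept it at -2.14 under the other choice. Ihh, a hedgehog ligand of visceral endoderm, was the gene that was higher, by 1.33.

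Many markers of other cell types were lower in the high class chosen by the factors. Of 8 epiblast markers 7 were lower and none higher (median log2 fold -2.71): Pou5f1 averaged 11.8 CPM in the high and 156 CPM in the low class, and Sox2 3.59 and 25.1 CPM. Of 10 trophectoderm markers 6 were lower and 1 higher (median -1.72). Of 4 streak and mesoderm markers tested 3 were lower, among them Hand1 at -5.12, and of 6 blood and endothelial markers tested 5 were lower, among them Kdr at -5.09. None of the 6 markers of the 2-cell-like state was tested, all being too low. Under the choice by the 8 other endoderm genes, all 8 epiblast markers were lower (median -1.36), whereas 4 of 9 trophectoderm markers were higher and 1 lower (median 0.28). Krt8, Krt18 and Krt19 together reached 800 CPM in 879 of 1010 high barcodes (87.0%), against 111 of 378 low barcodes (29.4%). Their summed levels were 1635, 1730 and 1694 CPM in the high class (Types I, II and III), against 1066, 1519 and 2556 CPM in the low class, so the level did not follow the share in Type III. Of the 3 keratins none was called higher and Krt19 was lower (log2 fold -1.41), whereas all 3 were higher under the choice by the 8 other endoderm genes.

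The genes with the profiles most like each factor were sought over 15 sums (3 libraries by 3 carrier classes, keratin and Pou5f1 barcodes) by Pearson's r of log2(CPM + 1). These points share libraries, and the low sums share the 95 keratin and 121 Pou5f1 barcodes given above with the background sums. The class sums were themselves chosen by UMIs of the factors, and each r includes the step between them and the backgrounds. Sox7 was closest to Foxq1 (0.992), Cemip (0.990) and Tfec (0.989), and Gata6 to Akr1c12 (0.990), Tfec (0.968) and Nrg1 (0.967). Hnf4a was closest to Mgst3 (0.994), Cndp2 (0.991) and Gnptab (0.990). Matrix and uptake genes were among the closest for the other 3: Gata4 to Dab2 (0.997), Col4a1 (0.993) and Pth1r (0.992), Sox17 to Serpinh1 (0.998), Cobll1 (0.993) and Sparc (0.989), and Foxa2 to Dab2 (0.996), Myo6 (0.993) and Ihh (0.991). Tfec was thus shared by Gata6 and Sox7, and Dab2 by Gata4 and Foxa2.

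Between types the factors differed little, with 1 library each and no test. A gene counted as different when its levels were at least 2-fold apart and the higher of them was 50 CPM or more. Only factors at 50 CPM or more in either library could be counted, 4 of the 6 in the high class and 3 in the low class. Of those in the high class none differed in Type II over Type I, where 0% of genes did, or in Type III over Type I, where 0.801% did. In the middle class, of 5 that could be counted, Sox7 differed: it was at 61.2 CPM in Type III and 30.1 CPM in Type I, 2.03-fold, from 14 and 181 barcodes, where 2.11% of genes differed. After thinning it was at 64.3 CPM in Type III and 34.8 CPM in Type I, 1.85-fold, under the limit. Gata6 was at 193 CPM in Type III and 104 CPM in Type I in the same class, also 1.85-fold. Of the 3 that could be counted in the low class none differed in Type II over Type I, where 0.0376% of genes did, or in Type III over Type I, where 1.49% did, and in the middle class none of 3 differed in Type II over Type I, where 0.037% did.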

How the data were processed

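UMI counts per gene and barcode were deposited for 3 libraries, 1 matrix each, from the 10x Chromium 3′ v3.1 kit per the labels' protocols. The file headers name Cell Ranger 6.0.1, and the submitters' processing notes name build mm10. The sources used here do not state the rule for calling cells. Barcodes with 10000 UMIs or more, at most 20% of them mitochondrial, were used (1405, 1992 and 272 in Types I, II and III). UMIs were summed per library and group and divided into CPM, with exact 95% Poisson intervals in the plots. No doublet caller was run, and an alternative left out the top 5% of UMIs. The members, limits and the 17 gene lists were chosen with earlier results of these data known.

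Sums were compared with edgeR 4.0.16 (quasi-likelihood test, filterByExpr, TMM, library as a block, R 4.3.3), with Benjamini-Hochberg adjustment over all genes tested and a threshold of 0.05. A sum needed at least 10 barcodes. Labels do not say whether libraries come from separate cultures, so p-values measure only the spread between these libraries. Shares used barcodes thinned to 10000 UMIs, with Python 3.11.15 and numpy 2.4.6. Named genes are the 6 factors, up to 4 genes of each list with the largest change among those called in high over low, and the 3 genes most like each factor. On simulated counts for high over low (11875 genes) the test found 89% of genes changed 1.5-fold and 100% of those changed 2-fold, with 9 false calls. The simulated counts had the same dispersion for all genes and no library differences beyond depth. Changes were planted only in genes above a minimum level. These rates therefore do not measure the misses or false calls of the tests on the real counts.

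Alternatives were RLE scaling, the DESeq2 1.42.0 test, no filter, other limits on members, carriers, UMIs and mitochondrial share, no library block and each library left out. Choices by at least 4 members, by the 5 other members and by 8 other endoderm genes were added after seeing the data.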

Additional observations from a re-analysis of the deposited data

Results flagged for a closer look

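Gata6 differed between the types in the step from the low to the middle class. Among barcodes chosen by the factors, the log2 ratio of middle over low was 0.42 in Type III, against -0.35 in Type II and -0.35 in Type I. The sign thus turned in 1 of the 3 libraries, whose middle and low classes hold 14 and 38 barcodes, and the difference was not tested. With barcodes chosen by 8 other endoderm genes the ratios had 1 sign, -0.26 in Type III, -0.93 in Type II and -0.90 in Type I.

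The 6 factors also had UMIs in the barcodes left out for depth or mitochondrial share. Their summed level there was 215.7, 171 and 154 CPM in Types I, II and III, far above the level that a count of 0 allows (3 counts in each library). It was close to the level of all kept barcodes together, 232.9, 202.6 and 155.9 CPM. The source of these UMIs was not tested. No comparison above uses these barcodes.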

How the results depend on the processing

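Gata6 and Hnf4a kept their direction and their call in high over low in 22 of 22 alternatives, with log2 folds of -1.75 to -0.78 and 0.95 to 2.22. The call held in 17 of 22 for Gata4, 13 for Sox17, 15 for Sox7 and 18 for Foxa2. The folds over keratin and Pou5f1 barcodes kept direction and call in 108 of 108 rechecks. Where values below differ from the main ones the cause was not tested, except that leaving out libraries or UMIs leaves less data.

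For high over low, at least 3 members gave 0.23 for Gata4 and -0.091 for Sox17. Members detected after thinning gave 0.16, -0.13 and, for Foxa2, 0.28. Ordering by Apoa1 and Apoa2 gave 0.052, -0.14 and 0.24, at least 4 members 0.026, -0.16 and 0.21, and choice by 8 other endoderm genes 0.017, -0.17 and 0.20 for Gata4, Sox17 and Foxa2. Sox17 was at 0.0073 with 20000 to 60000 UMIs, 0.33 without Pou5f1 barcodes, 0.050 with sums thinned and 0.17 when chosen by the 5 other members. Sox7 was at -0.32 to -0.55 with a library left out, -0.50 with no library block (no replicate block), -0.15 with carrier limits of 50 and 500 CPM, -0.19 with Ttr and Rbp4 alone, -0.43 without Pou5f1 barcodes and -0.46 with sums thinned.

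For middle over low, Gata6 was at -0.35 to 0.049 with a library left out, 0.30 with limits of 50 and 500 CPM, 0.27 with Ttr and Rbp4 alone and 0.13 without Pou5f1 barcodes. Sox7 turned to -0.24 with at least 3 members, -0.33 with detection after thinning, -0.12 with limits of 200 and 2000 CPM, -0.25 with Apoa1 and Apoa2, -0.21 with 20000 to 60000 UMIs, -0.42 with at least 4 members and -0.44 with the 8 other genes. For high over middle, Gata4 turned to 0.14 with limits of 50 and 500 CPM, 0.13 with Ttr and Rbp4 and 0.024 with 20000 to 60000 UMIs. Foxa2 was at -0.039 to 0.11 with a library left out, -0.042 with limits of 200 and 2000 CPM, -0.085 with Apoa1 and Apoa2 and -0.020 without the top 5% of UMIs.

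Genes called in high over low numbered 5575, 2320 to 6256 with a library left out (fewest without Type II), 3105 with detection after thinning, 3453 with Apoa1 and Apoa2 and 3095 with sums thinned. In middle over low they numbered 3337, 1051 to 3730 with a library left out, 1176 with at least 3 members, 698 with detection after thinning, 1893 with 20000 to 60000 UMIs, 2052 without Pou5f1 barcodes, 1351 with sums thinned, 1160 with at least 4 members and 1300 with the 8 other genes. In high over middle they numbered 900, 120 to 1856 with a library left out, 1459 with no filter, 468 with no replicate block, 582 with detection after thinning, 1552 with limits of 50 and 500 CPM, 1425 with Ttr and Rbp4, 177 with Apoa1 and Apoa2 and 462 without Pou5f1 barcodes.

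At least 4 factors were found in 86.7% of high, 77.2% of middle and 55.2% of low barcodes without thinning, and in 21.3% of high and 22.2% of middle barcodes without the top 5% of UMIs. Gata6 with Hnf4a were found in 67.4%, 48.9% and 29.7% without thinning. With the 8 other genes the low shares were 23.7% and 11.5%. With sums thinned, 0 factors differed between Types III and I in the middle class. The labels number no replicates, so libraries of a type cannot be paired. Type III limits precision with 14 to 38 barcodes in its classes, and levels below about 1 CPM rest on a few UMIs.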

Other observations

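Barcodes with endothelial genes held Sox7 at more than background level. Of the 31, 14 held at least 2 factors (45.2%), against 1807 of all 3669 kept barcodes (49.3%), and 1 held at least 4. Barcodes with at least 100 CPM of Kdr, Cdh5, Pecam1 and Tal1, genes of the endothelial and blood lineages, numbered 12, 15 and 4 in Types I, II and III. Sox7 was at 22.2, 35.4 and 67.3 CPM there, Gata6 at 26.3, 31.5 and 101 CPM and Sox17 at 10.1, 25.6 and 21.4 CPM. In keratin barcodes Sox7 was at 3.67, 3.73 and 0.353 CPM and in Pou5f1 barcodes at 3.23, 3.23 and 9.09 CPM. Sox17 was below its 29.8 to 41.1 CPM in keratin barcodes, some of which hold other factors. In the keratin barcodes emptied of those, which had no carrier limit, Sox17 was at 14.2, 25.6 and 20.7 CPM in Types I, II and III. In Pou5f1 barcodes emptied in the same way it was at 2.49, 2.45 and 1.10 CPM. Gata6 in Types I and II was within its 16.3 to 32.9 CPM in Pou5f1 barcodes, some of which hold other factors. In the Pou5f1 barcodes emptied of those, also without a carrier limit, Gata6 was at 1.38, 2.58 and 2.31 CPM in Types I, II and III. Gata6 in Type III, from 4 barcodes, was above both. Whether Gata6 or Sox17 is background in the endothelial set was not tested. Hnf4a had no UMI in any of the 31 barcodes, Gata4 was at 2.02, 0 and 0 CPM and Foxa2 at 0, 5.90 and 0 CPM. The 31 barcodes are few, and this set was chosen after seeing the data.

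Barcodes with at least 100 CPM of T, Mixl1, Mesp1 and Fgf8, genes of the primitive streak, numbered 54, 114 and 6. Sox17, also a factor of definitive endoderm, was at 19.8, 7.92 and 0 CPM in them, below its level in keratin barcodes as first defined. In the keratin barcodes emptied of other factors, which had no carrier limit, Sox17 was at 14.2, 25.6 and 20.7 CPM, in Type I below its level in the streak barcodes. Gata6 was at 7.32, 6.16 and 0 CPM in the streak barcodes. Sox7 was at 0.73, 0.66 and 0 CPM. The set was also chosen after seeing the data.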
